A study of Hypsibius dujardini with 126 samples.

Results

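The transcripts described here had a low mean level at 0-9 h of tardigrade development and a high mean level at 90-99 h, the last window of label time. They number 193 of the 12746 transcript models counted in single embryos of Hypsibius dujardini. Members were chosen by measured values. The mean over embryos in CPM (transcript counts scaled to a library of 1000000) had to be at least 1 at 0-9 h, and at 90-99 h at least 100 and at least 16 times the 0-9 h mean. The highest mean of the 10 windows of 10 h had to fall at 80-89 h or 90-99 h, and transcripts with a count in every kept embryo were left out. The early level, the late level and their ratio therefore describe the choice and were not tested. The files do not pair transcript IDs with gene names, so members are given by ID.

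RNA of 126 single embryos was measured by CEL-Seq, which reads a tag from the 3′ end of polyadenylated RNA. All embryos came from laboratory cultures of 1 species, were freed from shed cuticles, developed at 20 °C without treatment and were frozen at label times between the 1-cell stage and 99 h. The labels count minutes after fertilization, whereas the protocol counts hours past the 2-cell stage, so time zero is uncertain. Embryo numbers fall in 3 runs that the labels do not call batches: embryos 1-25 lie at 0 to 18 h and 80 to 98 h, embryos 26-78 at 47 to 99 h, and embryos 79-126 from the 1-cell stage to 46 h.

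Tardigrades are microscopic ecdysozoans with 4 pairs of clawed legs. Their embryos develop directly, without a larva: cleavage and the formation of germ layers and segments come first, and the embryo then builds cuticle, claws, the stylets and sucking pharynx of the mouth apparatus, muscle and gut before it hatches. In animals in general, RNA found before the embryo's own transcription starts is of maternal origin, and genes for differentiated tissues are transcribed late.

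Of the 126 embryos, 101 had at least 10% of the median transcript total of 634045 and were kept. The windows kept 17, 13, 7, 9, 10, 10, 4, 9, 8 and 14 embryos in order of time. Kept totals ranged from 65417 to 4972036 counts, and 1 count in the shallowest embryo was worth 15.3 CPM. In 5 kept embryos a single transcript, HD_v1_tr_06538, took over 10% of the counts, and its share was 51.3%, 33.2% and 27.4% in embryos 17 (80 h), 58 (79 h) and 76 (97 h). Transcript counts per spike-in count were far higher in embryos 79-126 (segment medians of 139 to 172) than in embryos 1-25 (2.38 to 10.5) and embryos 26-78 (4.62 to 5.93). The step from 46 to 47 h is also the step between 2 runs, so age and run cannot be told apart there.

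The members lay close to the limits of the rule at its edges. The lowest 0-9 h mean inside was 1.01 CPM, and the highest just outside was 0.999 CPM. The lowest 90-99 h mean inside was 103 CPM, and the nearest outside was 99.4 CPM. The lowest ratio inside was 16.3, and the nearest outside was 15.8. A further 274 transcripts met the late rule with a 0-9 h mean under 1 CPM, and 1 transcript met both rules but was counted in every kept embryo.

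At 0-9 h the member means had a median of 2.65 CPM and a highest value of 210 CPM. In 71 members the mean was under 2 CPM, in 55 it was at least 5 CPM and in 4 at least 50 CPM. A member was counted in a median of 9 of the 17 kept 0-9 h embryos, 9 members were counted in all 17, and 26 in at most 5. In 44 members a single embryo gave over 50% of the summed early CPM. The early presence of these 44 thus rests mainly on 1 embryo each.

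At 90-99 h the member means had a median of 415 CPM and reached 6793 CPM, and 44 members were at or above 1000 CPM. The 10 most abundant members held 31.2% of the members' summed 90-99 h mean, and the top 50 held 70.8%. The ratio of the 90-99 h mean to the 0-9 h mean had a median of 110 and a highest value of 1817. The members peaked at 80-89 h in 78 cases and at 90-99 h in 115. Embryos of 90-99 h differed in a member's level by a median coefficient of variation of 0.620, against 0.641 over the 1438 transcripts with a 90-99 h mean of at least 100 CPM.

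The share of an embryo's transcript counts that fell on the 193 members grew in 3 stretches of the course. At 0-9 h the lowest, median and highest shares were 0.0948%, 0.131% and 0.270%. At 10-29 h in embryos 79-126 they were 0.141%, 0.178% and 0.343%, at 30-39 h 0.0818%, 0.164% and 0.532%, and at 40-46 h 0.281%, 0.563% and 1.19%. From 47 to 56 h in embryos 26-78 the share lay between 1.38% and 2.60%, and from 57 to 69 h between 1.95% and 2.88%. In the kept embryos the share thus moved little from 57 to 69 h.

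The last growth fell within a few hours. In embryos 26-78 the embryos of 71, 72, 73, 74 and 75 h had shares of 2.71%, 3.45%, 3.04%, 3.38% and 3.53%. Those of 77, 78 and 79 h had 4.06%, 5.68% and 7.87%, and those of 81, 84 and 85 h had 12.5%, 14.4% and 15.4%. From 87 to 99 h the embryos of this run lay between 15.5% and 18.4%, except embryo 76 (97 h), with 11.4%. Each kept embryo from 81 h on in this run had a larger share than any earlier one. Embryo 55 (76 h) stood apart with 0.735%, between neighbours of 3.53% and 4.06%, and embryo 17 of the other run had 4.38% at 80 h. The 90-99 h shares averaged 16.4% ± 1.75 (SD, n = 14), with a lowest value of 11.4%, a median of 16.4% and a highest value of 19.2%.

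**Figure D1:**
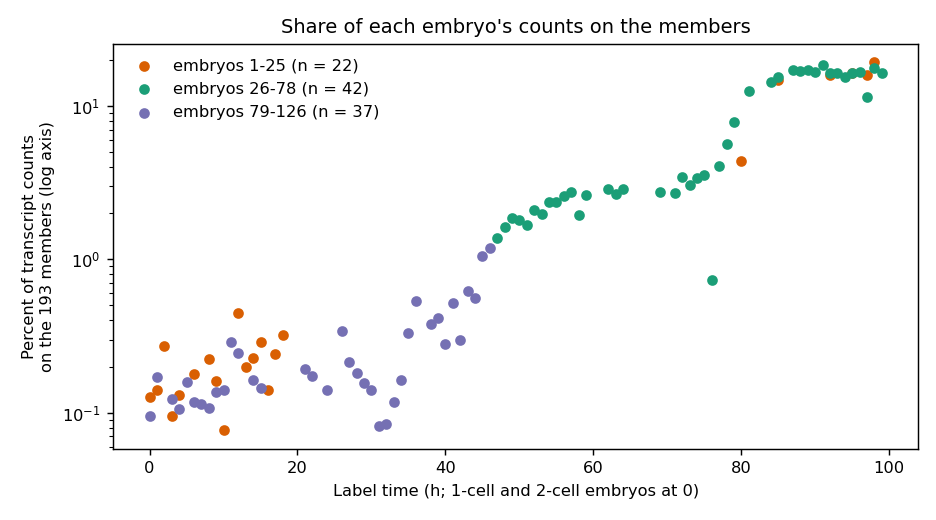
Percent of each kept embryo's transcript counts on the 193 members (log axis) against label time in hours, 1 point per embryo, coloured by run of embryo numbers. The share lies at 0.0948% to 0.270% at 0-9 h, at 1.95% to 2.88% at 57-69 h, and at 11.4% to 19.2% at 90-99 h; embryo 55 (76 h, 0.735%) lies far under its neighbours.

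Levels relative to the added spike-in RNA were also higher late within runs, in medians. In embryos 26-78 the members had medians of 0.102, 0.127, 0.176, 0.893 and 0.952 counts per spike-in count in the segments 47-56, 57-69, 70-79, 80-89 and 90-99 h. Single embryos went against this: embryo 76 (97 h) had 0.0658, within the 0.0626 to 0.143 of the embryos of 47-56 h. Over all transcripts embryo 76 was low too, with 0.576 counts per spike-in count, against a median of 5.51 at 90-99 h in its run. In embryos 1-25 the medians of the members were 0.0134, 0.0153, 0.0174 and 1.52 in the segments 0-4, 5-9, 10-18 and 90-99 h. The 2 kept embryos of 80-89 h in this run had 0.0117 (embryo 17) and 0.665 (embryo 20), the first of them under the 10-18 h median. Over all transcripts embryo 17 had 0.268 and embryo 20 had 4.49 counts per spike-in count. In embryos 79-126 the medians of the members were 0.175, 0.233, 0.285 and 0.575 in the segments 0-4, 5-9, 10-29 and 30-46 h. Levels per spike-in differ between runs and were not compared across them. In whole embryos, fewer cells of a type and less RNA per cell cannot be told apart.

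The members did not all rise at 1 time. Taking the first window from 10-19 h on at which a member's mean reached 10% of its 90-99 h mean, the 9 windows held the start of 8, 4, 7, 39, 28, 15, 34, 55 and 3 members. The 2 fullest windows were thus 80-89 h, with 55, and 40-49 h, with 39. Thus 135 of the 193 (69.9%) had started before 80 h, against 163 of the 274 transcripts with the same late rule but under 1 CPM early (59.5%). Before 40 h the counts were 19 of 193 (9.84%) and 3 of 274 (1.09%). The member rule raises the early level, so these shares describe the choice as well as the timing, and the difference was not tested. With window medians in place of means, or with a limit of 25%, the count before 80 h stayed within 1.5 times of 135.

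The 8 members that started at 10-19 h had a median 0-9 h mean of 10.6 CPM, above the median of each other start window. Their median was 62.6, 14.7 and 20.0 CPM in the next 3 windows, and 337 CPM at 90-99 h, so the first rise was followed by lower levels before the late one. At 10-19 h both runs held it: all 8 reached the 10% level in embryos 79-126 (median 83.0 CPM, n = 5 embryos) and 7 reached it in embryos 1-25 (median 57.6 CPM, n = 8 embryos).

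The 67 members that started at 40-49 h or 50-59 h were at a similar median level over 57-69 h and 71-76 h. In embryos 26-78 their median level was 124 and 126 CPM over 57-69 h and 71-76 h, 197 CPM over 77-79 h, 331 and 366 CPM over 81-84 h and 85-89 h, and 314 and 280 CPM over 90-96 h and 97-99 h. Of the 39 that started at 40-49 h, 23 reached the 10% level in the 7 embryos of 40-46 h of embryos 79-126 alone, and 37 in the 3 embryos of 47-49 h of embryos 26-78. The start of 23 members is thus seen before the change of run.

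The 55 members that started at 80-89 h had stayed near the detection limit over 57-69 h. In embryos 26-78 their median level was 0.376 CPM over 57-69 h (n = 7) and 1.54 CPM over 71-76 h (n = 6). It was 70.7 CPM over 77-79 h (n = 3), 148 CPM over 81-84 h (n = 2), 394 CPM over 85-89 h (n = 4) and 598 CPM over 90-96 h (n = 7). Some members had been counted early and then had no count at all for hours. In the 7 kept embryos of 57-69 h, with 5155368 counts in all, 35 members had no count, which allows up to 0.582 CPM. Of these 35, 24 started at 80-89 h or later, and their 0-9 h means reached 210 CPM.

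**Figure D2:**
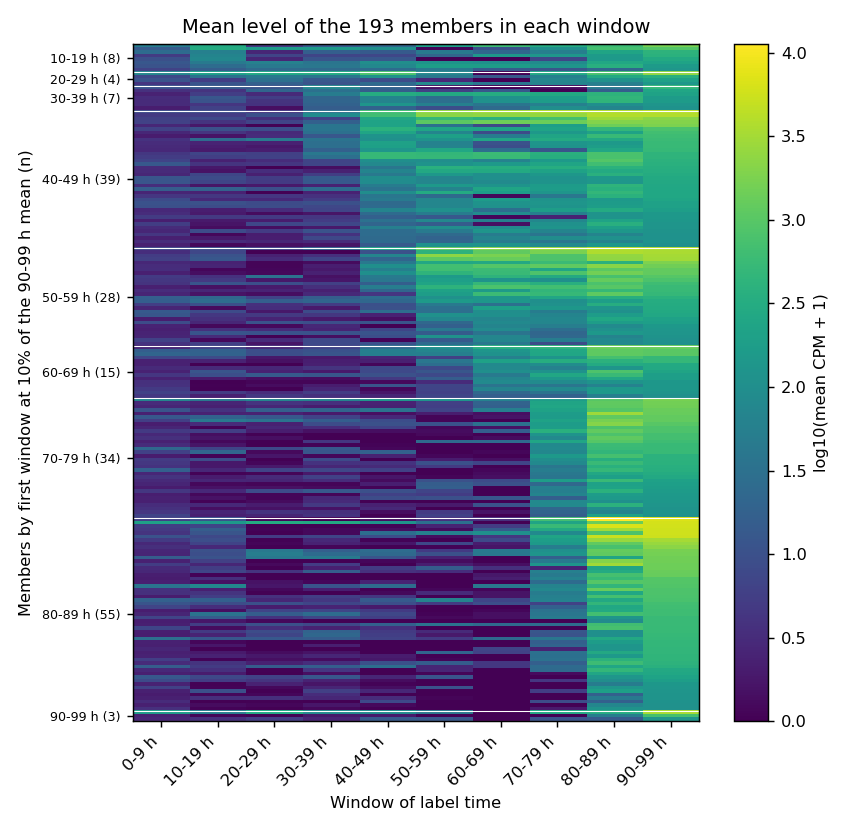
Mean level of each of the 193 members, as log10(mean CPM + 1), in the 10 windows of label time. Rows are members, grouped by the first window from 10-19 h on at 10% of the 90-99 h mean (number of members in brackets) and sorted by 90-99 h mean within a group; 39 start at 40-49 h and 55 at 80-89 h.

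Among the 58 members with a count in at least 12 of the 17 early embryos, HD_v1_tr_01382 and HD_v1_tr_09470 had the highest ratios of the 90-99 h to the 0-9 h mean. HD_v1_tr_01382 had a lowest, median and highest level of 865, 2964 and 6689 CPM at 90-99 h (n = 14), against 0, 2.32 and 13.8 CPM at 0-9 h (n = 17). HD_v1_tr_09470 had 1093, 3052 and 4991 CPM at 90-99 h, against 0, 1.05 and 19.5 CPM at 0-9 h. The groups do not overlap in either member. The rule and the pick of the highest ratios favour such a gap, so it was not tested. They do not fix it: HD_v1_tr_00660 had up to 729 CPM at 0-9 h and down to 64.0 CPM at 90-99 h.

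Both members had window means above 1000 CPM from 50-59 h on, except at 70-79 h. HD_v1_tr_01382 averaged 69.8, 2323, 1749, 837 and 2485 CPM in the 5 windows from 40-49 h to 80-89 h. In embryos 26-78 it had 90.2, 477, 1450 and 3685 CPM in the embryos of 47, 49, 52 and 54 h, and 66.6, 189, 4430 and 1739 CPM in those of 77, 78, 79 and 81 h. HD_v1_tr_09470 averaged 19.7, 1068, 1267, 829.2 and 2418 CPM in the same 5 windows; the 70-79 h mean of 829.2 ± 617 CPM (SD, n = 9) lies within the spread of the 60-69 h mean of 1267 ± 729 CPM (SD, n = 4).

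HD_v1_tr_05559 had the highest 90-99 h mean of all members and rose in a single step. It was at or under 19.5 CPM in every kept embryo of 47-76 h. The embryos of 77, 78, 79 and 81 h had 110, 1136, 4664 and 12351 CPM. At 90-99 h the lowest, median and highest levels were 2901, 6640 and 10344 CPM. The 4 plotted members thus show a rise at about 50 h, a first rise before 46 h, a step at 77-81 h and a rise in the last 3 hours.

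**Figure D3:**
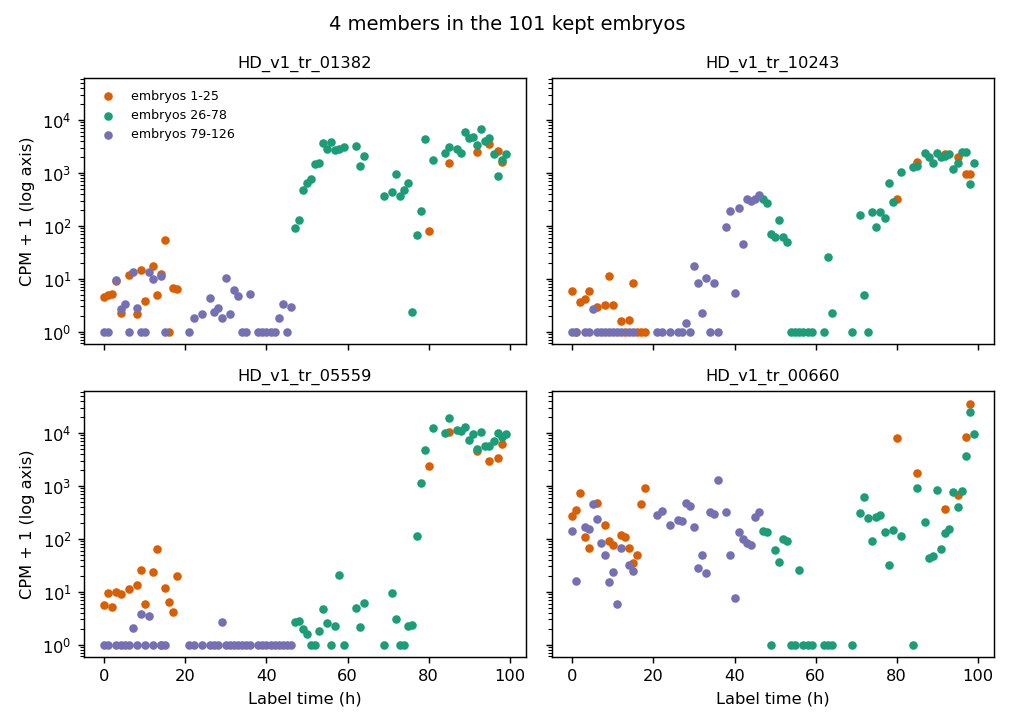
Level of HD_v1_tr_01382, HD_v1_tr_10243, HD_v1_tr_05559 and HD_v1_tr_00660 as CPM + 1 (log axis) against label time in hours, 1 point per kept embryo, coloured by run. HD_v1_tr_05559 lies at or under 19.5 CPM at 47-76 h and at 12351 CPM at 81 h, and HD_v1_tr_00660 is highest in the 2 embryos of 98 h (35818 and 24313 CPM).

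The middle of the course was not used to set the size of the late rise, and was tested within runs with edgeR's quasi-likelihood F-test over all 12285 transcripts that passed the filter on low counts, with Benjamini-Hochberg adjustment. All 193 members passed that filter. It was applied over all kept embryos, so the late embryos used to choose the members counted towards passing. In the embryos of a single comparison, the filter kept 13 members and 5962 transcripts for the earlier comparison of the middle. For the later one it kept 95 members and 5363 transcripts. The part of the filter in the shares of members and of all transcripts called was not tested. The rule does require that no middle window exceeds the late ones, so a member could not be highest there.

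Some members rose between 10-29 h and 30-46 h in embryos 79-126. At adjusted p under 0.05, 26 of 193 members (13.5%) were higher at 30-46 h (n = 16) than at 10-29 h (n = 12), beside 3.52% of all transcripts tested, and 2 were lower, beside 0.114%. The median log2 fold change was 0.62 in the members and 0.02 over all transcripts. Of the 274 transcripts with the same late rule but under 1 CPM early, 25 (9.12%) were higher. The 26 members had a median of 45.9 CPM at 30-46 h, against 2.45 CPM at 10-29 h, and in all 26 the mean was higher at 40-46 h than at 30-39 h. With RLE factors, which moved the median of all transcripts to -0.41 and that of the members to 0.02, 14 members were higher, beside 1.22% of transcripts. In DESeq2 the medians were -0.20 in the members and -0.47 over all transcripts, so the sign of the members' median flips there, and 19 members were higher, beside 2.07% of transcripts, and 4 lower, beside 1.24%. In a fit of the contrast's embryos alone, whose filter kept 13 members, 1 was higher, beside 2.85%, and with limma on log2 CPM in those embryos 2 of 193 were, beside 0.252%.

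HD_v1_tr_10243 had the largest rise among members with at least 10 CPM. Its lowest, median and highest levels were 0, 30.4 and 386 CPM at 30-46 h, against 0, 0 and 0.464 CPM at 10-29 h, where 1 of 12 embryos had a count. The log2 fold change was 8.98 ± 1.23 (SE; edgeR adjusted p = 1.06e-07). At 43-46 h it was at 292 to 386 CPM, at 54-59 h it had no count in any kept embryo, and at 90-99 h it averaged 1760 CPM. The member with the largest fall, HD_v1_tr_09702, rests on 1 embryo: it had at most 6.55 CPM at 30-46 h, and a median of 0 and a highest value of 224 CPM at 10-29 h (log2 fold change -4.39 ± 0.94; edgeR adjusted p = 0.00116). Its call was lost with limma on log2 CPM in the contrast's embryos, with a log2 fold change of -0.48. Neither HD_v1_tr_10243 nor HD_v1_tr_09702 passed the filter on low counts in the contrast's embryos alone. Neither was tested in that fit, and the p-values above come from the fit over all kept embryos.

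Between 47-56 h and 70-79 h in embryos 26-78, a larger number of members rose. At adjusted p under 0.05, 98 of 193 members (50.8%) were higher at 70-79 h (n = 9) than at 47-56 h (n = 10), beside 15.1% of all transcripts, and 4 were lower, beside 8.81%. The median log2 fold change was 1.93 in the members and 0.00 over all transcripts. Of the 274 transcripts with the same late rule but under 1 CPM early, 137 (50.0%) were higher. The 98 members had a median of 95.7 CPM at 70-79 h, against 1.39 CPM at 47-56 h, and 27 of them had no count in any embryo of 47-56 h.

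The number of calls differed between fits, and the cause was not tested. In a fit of the contrast's embryos alone, whose filter kept 95 of the members, 11 were higher, beside 1.94% of transcripts, and 1 was lower, beside 3.77%. With limma on log2 CPM in the same embryos, an alternative chosen after seeing the data, 21 members were higher, beside 2.12%, and 1 was lower, beside 4.62%. Of the 98 members, 64 had a count in at least 5 of the 9 embryos of 70-79 h, and 14 in at most 2. No member had all embryos of 70-79 h above all of 47-56 h, beside 0.0346% of the 11565 transcripts with a count in these embryos. Without embryos 55 and 58, which stand apart in member share or depth, 9 members did, beside 1.1%, and edgeR called 84 members higher, beside 13% of transcripts.

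HD_v1_tr_05964 had the largest rise in this comparison. It had 0 CPM at 71, 72 and 73 h, then 0.908, 7.35 and 2.66 CPM in the embryos of 74, 75 and 76 h, and 327, 538 and 1065 CPM in those of 77, 78 and 79 h, against 0 CPM in all 10 embryos of 47-56 h. Only the embryos of 77 to 79 h were high. Over the pooled counts of each group its level was at least 583-fold higher at 70-79 h, with 3 counts over the group as the floor (edgeR adjusted p = 5.99e-09). Its call was lost with limma on log2 CPM in the contrast's embryos, with a log2 fold change of 3.21. The member with the largest fall, HD_v1_tr_03874, rests again on 1 embryo, with 0 CPM in all 9 embryos of 70-79 h, and 105 CPM in 1 and 0 CPM in 9 embryos of 47-56 h (edgeR adjusted p = 0.00315). This call too was lost with limma, with a log2 fold change of -0.57. Neither HD_v1_tr_05964 nor HD_v1_tr_03874 passed the filter on low counts in the contrast's embryos alone. Neither was tested in that fit, and the p-values above come from the fit over all kept embryos.

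The early level differed between the runs that hold early embryos. The 8 kept 0-9 h embryos of embryos 1-25 had a median total of 3232814 counts, and the 9 of embryos 79-126 a median of 559074. A mean of at least 1 CPM was reached in both runs by 110 members, only in embryos 1-25 by 63 and only in embryos 79-126 by 20. The 63 had medians of 3.09 CPM in embryos 1-25 and 0.258 CPM in embryos 79-126, and 17 of them had no count in embryos 79-126, whose pooled 6028404 counts allow up to 0.498 CPM. The 20 had medians of 0.227 CPM in embryos 1-25 and 2.36 CPM in embryos 79-126, and 4 had no count in embryos 1-25.

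By late level, the early medians of the runs were as follows; both the 0-9 h and the 90-99 h means were used to choose the members, and 63 passed the early limit only through embryos 1-25, so this describes the choice as well. Among the 44 members with a 90-99 h mean of at least 1000 CPM, the median 0-9 h level was 6.23 CPM in embryos 1-25 and 1.35 CPM in embryos 79-126, and 38 of the 44 were higher in embryos 1-25. Among the 72 members of 300 to 1000 CPM late it was 3.65 and 1.74 CPM, with 47 higher in embryos 1-25. Among the 77 members under 300 CPM late it was 2.63 CPM in embryos 1-25 and 2.14 CPM in embryos 79-126, with 41 higher in embryos 1-25. In embryos 1-25 the same order was seen later, with 9.38, 2.22 and 1.47 CPM at 10-18 h. In embryos 79-126 the 3 medians were 2.43, 1.93 and 2.31 CPM at 10-29 h, which is not their order at 0-9 h. Embryos 1-25 are also the run that holds late embryos, and the part of this in the early levels was not tested.

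The test of this difference uses the 0-9 h values on which members were chosen, so the members' counts are given beside those of all transcripts and nothing is read from comparing them. In edgeR, 5 members were higher in embryos 1-25, beside 0.936% of all transcripts, and 3 were lower, beside 0.301%; the median log2 difference was 1.09 in the members and 0.08 over all transcripts. DESeq2, whose medians were 0.18 in the members and -0.47 over all transcripts, called 14 members higher, beside 0.995%, and 10 lower, beside 1.73%. In edgeR without embryo 7, 3 members were higher, beside 0.472%, and 1 lower, beside 0.0244%. Without embryo 8, 2 were higher, beside 0.546%, and 3 lower, beside 0.0733%. HD_v1_tr_05559 had the largest difference, with 4.66, 8.55, 4.09, 9.00, 7.94, 10.3, 12.2 and 24.4 CPM in embryos 1 to 8, against 0 CPM in 7 embryos and 1.05 and 2.84 CPM in 2 embryos of 79-126. The runs do not overlap, and the 2 values above 0 in embryos 79-126 are of 1 count each (log2 difference 5.23 ± 1.33; edgeR adjusted p = 0.0252). That call was lost with RLE factors and without embryo 8, with log2 differences of 5.41 and 4.86.

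**Figure D4:**
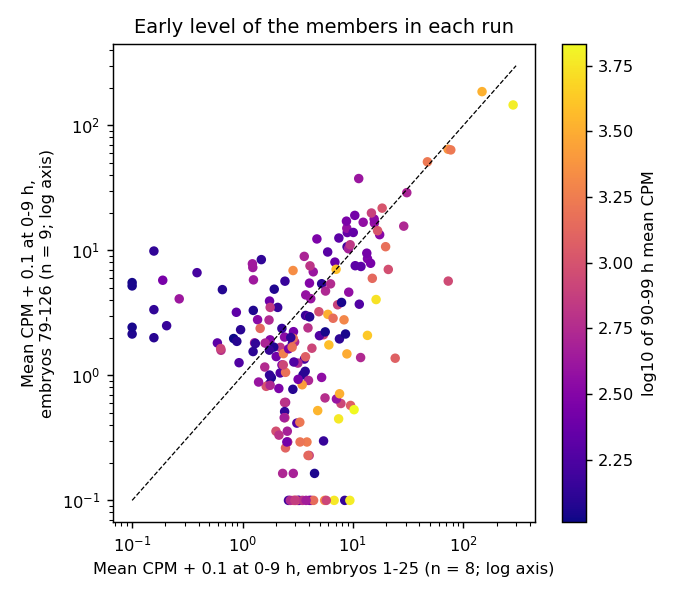
Mean level at 0-9 h of each of the 193 members as CPM + 0.1 (log axes), in embryos 1-25 (x axis, 8 embryos) and embryos 79-126 (y axis, 9 embryos); the dashed line marks equal levels and the colour the 90-99 h mean as log10 CPM. Of the members, 126 lie under the line, and 17 lie on the lower edge, with no count in embryos 79-126.

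The late over early contrast of the rule is given here within the run that has both. In embryos 1-25 alone, the mean of the 4 embryos of 90-99 h was at least 16 times the 0-9 h mean in 182 of 193 members, and the ratio had a median of 131 and a lowest value of 7.03 over the 189 members with an early count there. These are the values the rule used, shown by run, so the 182 describes the choice. The late levels of both runs were alike in most members: 161 of 193 were within 2-fold of each other at 90-99 h, and the median ratio of embryos 1-25 over embryos 26-78 was 1.03. The shares of all transcripts at 16-fold and within 2-fold were not computed. The test of the late runs uses 80-99 h values on which members were chosen, so nothing is read from the members' share of calls against that of all transcripts. HD_v1_tr_09876, described with the last hours, and 1 further member were the 2 members higher in embryos 1-25 over 80-99 h in edgeR, beside 3.31% of all transcripts, and 3 were lower, beside 2.21%. The median log2 difference was -0.51 in the members and -1.30 over all transcripts, so it sits on a shift of the whole table. HD_v1_tr_08534 was called lower, with a lowest, median and highest level of 0, 144 and 371 CPM in embryos 1-25 (n = 6), against 40.9, 447 and 1139 CPM in embryos 26-78 (n = 16). The runs overlap, and the means were 152 CPM in embryos 1-25 and 529 CPM in embryos 26-78. The fitted log2 difference of -6.70 ± 2.06 (edgeR adjusted p = 0.0352) weighs 80-89 h and 90-99 h equally. Embryos 17 and 20, the kept 80-89 h embryos of embryos 1-25, had no count, so that value depends on how the fit treats counts of 0 and is not the ratio of these means. Its call was lost without embryo 17, without embryo 20, with RLE factors and in DESeq2, with log2 differences of -6.62, -6.56, -6.40 and -4.22. Without embryo 17 (80 h) edgeR called no member higher, beside 1.92%, or lower, beside 0.51%. At an unadjusted p under 0.05 there were then 2 higher, beside 4.25%, and 15 lower, beside 11.1%. DESeq2 over all kept embryos called 5 higher, beside 5.62%, and 3 lower, beside 4.02%. Without embryo 20 (85 h) edgeR called 2 higher, beside 2.2%, and none lower, beside 0.455%, with 26 lower at an unadjusted p under 0.05, beside 5.17%. Without embryo 22 (92 h) 4 were higher, beside 3.04%, and 4 lower, beside 4.3%. Without embryo 25 (98 h) 1 was higher, beside 2.78%, and 1 lower, beside 1.74%.

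The hours within 0-9 h were compared too, on values that the early limit of the rule used, so nothing is read from the members' share of calls. Between 0-4 h and 5-9 h, taken over both runs, edgeR called 2 members higher, beside 0.155% of all transcripts, and none lower, beside 0%. At an unadjusted p under 0.05 there were 35 higher, beside 6.4%, and 9 lower, beside 1.63%. DESeq2 called 14 higher, beside 1.01%, and 2 lower, beside 0.576%, at the adjusted threshold. Without embryo 8 (9 h) edgeR called none higher, beside 0%, with 22 at an unadjusted p under 0.05, beside 4.61%. HD_v1_tr_09831 had 6.50, 38.4 and 58.4 CPM in embryos 6, 7 and 8 (6, 8 and 9 h), and 3.47, 12.9, 30.4, 32.2 and 53.9 CPM in embryos 85 to 89 (5 to 9 h). At 0-4 h its lowest, median and highest levels were 0, 0.888 and 11.6 CPM. From 5 h on in embryos 79-126, and over 6, 8 and 9 h in embryos 1-25, each later embryo had a higher level, and the groups overlap through the embryos of 5 and 6 h. The log2 fold change of 5-9 h over 0-4 h was 3.29 ± 0.75 (edgeR adjusted p = 0.0301), and the call was lost without embryo 8, with RLE factors and with a stricter depth filter, with log2 fold changes of 2.88, 2.89 and 3.21. HD_v1_tr_09831 then averaged 21.9 and 5.81 CPM in the next 2 windows, and 380 CPM at 90-99 h.

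In the last 3 hours some members lay wholly above or below 90-96 h, a pattern chosen after the values were seen and therefore given with no test. The 5 embryos of 97-99 h, from both late runs, all lay above all 9 embryos of 90-96 h in 11 of the 193 members (5.70%), beside 3.69% of the 1438 transcripts with a 90-99 h mean of at least 100 CPM. They all lay below in 23 members (11.9%), beside 4.17%. The 11 had a median of 1955 CPM at 97-99 h, against 49.6 CPM at 90-96 h, and ratios of 8.77 to 266. The 23 had medians of 270 CPM at 97-99 h and 1288 CPM at 90-96 h. Over all members the ratio of 97-99 h to 90-96 h had a median of 0.786, and over the 1438 transcripts 0.797. It was at least 4 in 14 members (7.25%), beside 90 of the 1438 transcripts (6.26%), so such rises were about as frequent in both. Totals were 131746 to 1511717 counts at 97-99 h and 546807 to 2026191 at 90-96 h, and embryos 24 and 76 of 97 h had 10.4% and 27.4% of their counts on HD_v1_tr_06538. Without these 2 embryos 20 members lay above and 27 below, and within embryos 26-78 alone (3 embryos against 7) 15 lay above and 37 below. The share of all transcripts was not computed in these settings. Groups of fewer embryos separate more easily, so nothing is read from the larger counts.

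HD_v1_tr_00660 had the highest level of the 11 at 97-99 h. It had 8383 and 3727 CPM in the embryos of 97 h, 35818 and 24313 CPM in those of 98 h and 9445 CPM in that of 99 h, against a lowest, median and highest level of 64.0, 390 and 832 CPM at 90-96 h. This member also had the highest 0-9 h mean of all, 210 CPM, was at 299 CPM at 20-29 h, and had no count in any kept embryo of 57-69 h. HD_v1_tr_07946 had 6413, 4175, 7159, 16803 and 7758 CPM in the 5 embryos of 97-99 h, against 163, 313 and 947 CPM at 90-96 h. Like HD_v1_tr_00660 it was 1 of the 4 members with an early mean of at least 50 CPM, with a mean of 168 CPM at 0-9 h and 268 CPM at 20-29 h. In 8 of the 11 members embryo 17, labelled 80 h, was also above every 90-96 h embryo: it had 7877 CPM of HD_v1_tr_00660, where the embryo of 81 h had 112 CPM. HD_v1_tr_09876, the member called highest in embryos 1-25 over 80-99 h (log2 difference 5.30 ± 1.18; edgeR adjusted p = 0.00114), had 1063 to 9354 CPM at 97-99 h, against 0 to 55.9 CPM at 90-96 h, and 1719 CPM in embryo 17. Its call was lost without embryo 17, with a log2 difference of 2.88.

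HD_v1_tr_10574 had the highest 90-96 h mean of the 23 members that lay below. Its lowest, median and highest levels were 455, 792 and 2663 CPM at 97-99 h, against 3884, 6370 and 18200 CPM at 90-96 h.

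**Figure D5:**
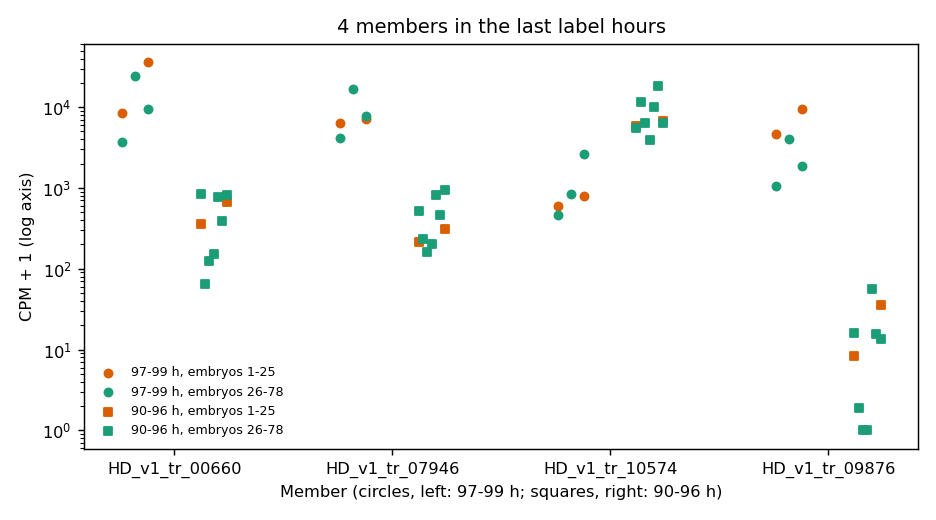
Level of HD_v1_tr_00660, HD_v1_tr_07946, HD_v1_tr_10574 and HD_v1_tr_09876 as CPM + 1 (log axis) in the 5 embryos of 97-99 h (circles, left) and the 9 embryos of 90-96 h (squares, right), 1 point per embryo, coloured by run. HD_v1_tr_10574 is lower at 97-99 h (455 to 2663 CPM) than at 90-96 h (3884 to 18200 CPM), and the other 3 members are higher.

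The 25 embryos left out for depth were not used by the rule. The member share was 0.131% and 0.145% in the 2 of 0-9 h and 0.143% to 0.301% in the 8 of 10-29 h. In the 1 embryo of 30-39 h it was 0.916%, above the highest kept value of that window, 0.532%. In the 6 of 60-69 h it was 0.136% to 3.17% with a median of 0.161%, against 2.68% to 2.88% in the 4 kept embryos, so the level given for 57-69 h rests on the kept embryos. The 1 embryo of 70-79 h had 0.0153%. In the 7 of 80-89 h it was 0.437% to 7.54%, against 4.38% to 17.2% in the 8 kept embryos of that window. At 80 h, the only label time of this window that both share, left-out embryo 59 had 4.27% and kept embryo 17 had 4.38%. With HD_v1_tr_06538 left out of the totals the shares of the 7 were 1.23% to 12.2%, with a median of 2.96%, and those of the 6 of 60-69 h 0.396% to 3.22%, with a median of 0.548%. The part of depth and of that transcript in these shares was not tested.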

How the data were processed

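RNA of 126 single whole embryos of Hypsibius dujardini was measured by CEL-Seq. The authors deposited raw, unscaled read counts for 12746 transcript models, 92 ERCC spike-in RNAs and 5 summary rows. Per the submitters' processing notes, the tools were CASAVA 1.8, Bowtie2 2.1.0 and HTSeq 0.5.4p3. A build is not given in the sources used here. Spike-ins and summary rows stayed out of library sizes and tests. The counts hold no molecular identifiers, so floors cover counting error only. The extraction protocol describes 3′ tags, so values were not divided by length and levels of different transcripts were not compared per length.

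Embryos with a total of at least 10% of the median (634045 counts) were kept (101 of 126) and grouped by label time in 10 windows, and by embryo number in the runs 1-25, 26-78 and 79-126. Members were chosen on CPM means of windows. The members, the runs and the tests were chosen with earlier results of these data known. Differences were tested with edgeR 4.0.16 (R 4.3.3) in 1 fit over 14 cells of run and time, with TMM factors, the default filter on low counts, quasi-likelihood F-tests and Benjamini-Hochberg adjustment over 12285 transcripts at 0.05. The labels link no embryo to a mother, and p-values measure only how these embryos vary. The fit was tested on simulated data. Named IDs are the 2 members with the highest ratio of late to early mean among those counted in at least 12 early embryos, and, per comparison and direction, the member with the largest log2 change among those called with at least 10 CPM in the higher group. HD_v1_tr_05559 as the most abundant member and the IDs of the last 3 hours were chosen after their values were seen. Alternatives used DESeq2 1.42.0, RLE factors, limma 3.58.1 (log2 CPM, prior count of 2), other filters, single contrasts and left-out embryos. Python 3.11.15, numpy 2.4.6, pandas 2.3.3 and matplotlib 3.10.9 served the rest.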

Additional observations from a re-analysis of the deposited data

Results flagged for a closer look

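The member share and the number of members with a count were each checked in the windows of 4 to 10 kept embryos, which gave 14 sets of values. In these, 4 values stood far from the rest of their set. Chance flags about 1 in 20 independent sets, but both measures come from the same embryos, so the sets are not independent. Embryo 106 (26 h) had 0.343% of its counts on the members, against 0.141% to 0.214% in the 6 other embryos of 20-29 h. Embryo 37 (58 h) had a count in 40 members, against 81 to 114 members in the 9 other embryos of 50-59 h. Embryo 17 (80 h) had 4.38% of its counts on the members, against 12.5% to 17.2% in the 7 other embryos of 80-89 h. It had a count in 103 members, against 163 to 193 in the same 7 embryos, and 51.3% of its counts lay on HD_v1_tr_06538.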

How the results depend on the processing

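With window medians in place of means 81 transcripts met the rule, 68 of them among the 193, and the other 8 alternatives gave 142 to 212. The 142 came with RLE library sizes, and 115 of them were among the 193 (59.6% of the members). Early detection in both runs, the start before 80 h (135 without any single 60-69 h embryo), 16-fold within embryos 1-25 (177 to 183 without single embryos) and the 90-99 h share stayed within 1.5 times or 1 SD. For 30-46 h over 10-29 h, higher and lower members were 14 and 2 with RLE factors, beside 150 and 37 of 12285 transcripts. Of the 13 members that passed the filter in the contrast's embryos they were 1 and 0, beside 170 and 60 of 5962. In limma they were 2 and 0, beside 31 and 6 of 12285, and in DESeq2 19 and 4, beside 195 and 117 of 9426. For 70-79 h over 47-56 h they were 11 and 1 in the contrast's embryos and 21 and 1 in limma. For embryos 1-25 over 79-126 early they were 2 and 4 with RLE factors, beside 59 and 70 of 12285. Without embryos with over 10% on 1 transcript they were 8 and 4, beside 132 and 51 of 12528. Of the 88 members that passed in the contrast's embryos they were 12 and 4, beside 734 and 327 of 8349. DESeq2 gave 14 and 10, beside 108 and 188 of 10852. Without single embryos they were 2 to 4 and 1 to 3, beside 58 to 78 and 3 to 9 transcripts. For embryos 1-25 over 26-78 late they were 5 and 0 with RLE factors, beside 505 and 180 of 12285. At 20% of the median depth they were 0 and 1, beside 243 and 70 of 12538. Without embryos with over 10% on 1 transcript they were 0 and 2, beside 230 and 113 of 12528. In the contrast's embryos they were 2 and 5, beside 126 and 51 of 9726. DESeq2 gave 5 and 3, beside 663 and 475 of 11802. Without single embryos they were 0 to 4 for both, beside 241 to 404 and 57 to 528 transcripts. For 5-9 h over 0-4 h they were 1 and 0 with RLE factors, beside 7 and 1 of 12285. Of the 88 members that passed in the contrast's embryos they were 12 and 0, beside 654 and 412 of 8349. DESeq2 gave 14 and 2, beside 100 and 57 of 9901. Without single embryos they were 0 to 3 and 0, beside 0 to 23 and 0 transcripts. In the last 3 hours, 20 members lay above without embryos with over 10% on 1 transcript and 37 below in embryos 26-78 only, and 11 to 14 and 24 to 31 without single embryos. Shares of all transcripts were not computed for these last-hour settings. Of 68 alternative values for named members, 15 lost their call and none changed sign. HD_v1_tr_10243, HD_v1_tr_09702, HD_v1_tr_05964 and HD_v1_tr_03874 did not pass the filter in their contrast's embryos alone. That setting gave no value for them and is not among the 68. The contrast-only fits used fewer embryos and tested fewer transcripts, and the causes of the differences between settings were not tested. Alternatives with limma, without named embryos and those of the last 3 hours were chosen after seeing the data. An early level of 1 CPM is under 1 count in embryos below 1000000 counts. No paired analysis was possible because replicate numbers were given in accession order.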
